A study of Mus musculus with 12 samples.

Results

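The genes for collagen and laminin chains were followed through polyA RNA-seq of cardiac precursors, the mesodermal cells that precede beating cardiomyocytes, made from C57BL/6 mouse embryonic stem cells. The members were rows of the expression table whose symbol names a collagen or a laminin chain: 54 of 35856 rows, 44 collagen and 10 laminin genes. They were divided into 9 fibrillar collagens (types I, II, III, V and XI), 18 basement membrane genes (collagen types IV, XV and XVIII and the laminins) and 27 other collagens. The cells carried an auxin-inducible degron (AID), a tag through which the plant hormone auxin and the F-box protein Tir1 send the tagged protein to the proteasome. The 3 lines were tagged on SUZ12 (SUZ12-AID), on MTF2 (MTF2-AID) or on JARID2 (AID-JARID2), and all of them, untreated libraries included, carried Tir1. Each line was sequenced untreated and with 50 µM indole-3-acetic acid, the auxin used here, giving 6 groups of 2 libraries. SUZ12 is a core subunit of Polycomb repressive complex 2, which places the repressive methyl marks on lysine 27 of histone H3, whereas MTF2 and JARID2 join it in separate accessory forms. The cells grew as embryoid bodies for 48 h, were reaggregated for 43 h with VEGF, Activin A and BMP4, and were harvested 32 h after plating as a monolayer.

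The labels do not say when auxin was added. Each subunit is represented by 1 tagged line and no untagged line received auxin, so effects of the line, of auxin itself and of losing the subunit cannot be told apart. The degron acts on protein, so the transcript of a tagged gene checks nothing. The libraries are named biological replicates, but whether each came from its own culture is not said, so every p-value reflects library-to-library spread that may be technical.

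Collagens are trimers of chains that each come from their own gene. Fibrillar collagens assemble into the ropes of connective tissue, and types I and III are the main ones of cardiac fibroblasts and valves. Type IV collagen forms the network of basement membranes, the thin sheets under epithelia, endothelia and around muscle cells. Laminins are cross-shaped trimers of 1 alpha, 1 beta and 1 gamma chain that nucleate those sheets and bind integrins. The alpha chain sets most of their receptor binding: Lama1 is the chain of early embryonic basement membranes, Lama4 that of vascular and mesenchymal ones, Lama5 the broad chain of epithelia and the epiblast, and Lama3 pairs with Lamb3 in the laminin that anchors surface epithelia.

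The start regions of 4 basement membrane genes are shown because their transcripts carry the contrasts described here: Col4a5 and Col4a6, a divergent pair that fell together, and Lama5 and Lamb3, which rose in the same libraries. The windows come from RefSeq on GRCm38.p6, stop before the first exon base that GENCODE M21 annotates, and are written 5′ to 3′ on the strand of the gene, with capitals marking each match, on either strand, to the CCAAT box, to the GC box GGGCGG, to the TATA box TATAAA, to the AP-1 element TGANTCA or to the E-box CACCTG. Col4a5 is read at chrX:141475169-141475384 on the plus strand and Col4a6 at chrX:141474077-141474326 on the minus strand, so the pair faces away from each other. Lama5 is read at chr2:180225860-180226109 on the minus strand. Lamb3 is read at chr1:193301744-193301992 on the plus strand, the first of its 2 listed starts, inside the span that GENCODE M21 gives the gene.
Col4a5: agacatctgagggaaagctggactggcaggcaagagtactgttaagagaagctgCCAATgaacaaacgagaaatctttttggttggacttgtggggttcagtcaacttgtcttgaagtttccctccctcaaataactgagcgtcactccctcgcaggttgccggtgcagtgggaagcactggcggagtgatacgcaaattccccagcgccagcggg
Col4a6: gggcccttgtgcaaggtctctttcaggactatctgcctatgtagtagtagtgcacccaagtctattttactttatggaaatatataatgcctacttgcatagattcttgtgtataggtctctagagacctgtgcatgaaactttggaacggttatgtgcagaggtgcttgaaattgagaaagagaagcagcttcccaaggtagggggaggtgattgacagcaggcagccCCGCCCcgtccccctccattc
Lama5: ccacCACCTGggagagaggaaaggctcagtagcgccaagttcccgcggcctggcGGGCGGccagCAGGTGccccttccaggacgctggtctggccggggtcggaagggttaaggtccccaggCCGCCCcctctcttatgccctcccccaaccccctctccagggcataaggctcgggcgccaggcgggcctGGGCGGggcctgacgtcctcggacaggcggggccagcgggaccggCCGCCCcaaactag
Lamb3: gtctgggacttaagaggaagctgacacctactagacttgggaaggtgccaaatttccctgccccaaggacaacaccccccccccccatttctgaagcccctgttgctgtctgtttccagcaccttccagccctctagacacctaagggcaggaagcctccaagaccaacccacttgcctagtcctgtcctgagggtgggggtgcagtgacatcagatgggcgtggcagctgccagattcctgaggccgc
That stop leaves 216 bases for Col4a5, 249 for Lamb3 and 250 for Col4a6 and Lama5. The printed Col4a5 stretch holds 8 CpG dinucleotides and 1 CCAAT box, and its full window of 250 bases 10 CpG, the CCAAT box and 1 GGGCGG box. The Col4a6 window has 3 CpG and 1 GGGCGG box. Lama5 has 19 CpG, 4 GGGCGG boxes and 2 CACCTG boxes. The printed Lamb3 window has 2 CpG and none of the motifs, while the window of its second listed start has 3 CpG and 1 CACCTG box. Of the 54 members, 40 had a start region in the table. Over those 40, with 1 window per gene, full windows of 250 bases held CCAAT in 13, GGGCGG in 23, TATAAA in 5, TGANTCA in 1 and CACCTG in 5. Among all 32851 such windows, the shares were 33.8% for CCAAT, 32.7% for GGGCGG, 12.4% for TATAAA, 6.75% for TGANTCA and 17.2% for CACCTG. A match describes letters and is no evidence of binding.

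The TPM values kept whole-read steps, from which 10138920 to 17173072 reads in genes per library were recovered, and 18964 to 21026 genes lay above 0. Markers of cardiac precursors checked the label of the cells. Their summed level was 286 to 328 TPM in untreated SUZ12-AID, 320 to 338 TPM in untreated MTF2-AID and 424 to 426 TPM in untreated AID-JARID2, while Tbx5 stayed at or below 0.712 TPM and Nkx2-5 in AID-JARID2 at or below 1.67 TPM. Untreated AID-JARID2 had Kdr at 127 TPM in both libraries, against at most 71.4 TPM in the other untreated lines. Its Mef2c was 6.03 and 6.46 TPM, against 19.5 to 27.0 TPM in them. The sum therefore does not rank the lines by cardiac identity. With auxin the sum was 513 to 539, 333 to 341 and 77.0 to 99.0 TPM in the same order, so the auxin libraries labelled cardiac precursors in AID-JARID2 held the lowest sum. Their pluripotency markers summed to 3348 to 3399 TPM, against 782 to 789 TPM untreated. In bulk RNA, fewer cells of a type and less RNA per cell cannot be told apart.

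A member entered the test when it reached 1 TPM in 2 or more libraries, which 41 of the 54 did: all 9 fibrillar, 14 of 18 basement membrane and 18 of 27 other collagen genes. Differences are log2 fold changes of TPM + 1, which understate changes of low genes, tested with limma, two-sided and adjusted by Benjamini-Hochberg over all 15663 genes kept, with a call at an adjusted p under 0.05. Auxin in AID-JARID2 moved the most members: 17 fell and 6 rose, against backgrounds of 17% of genes tested that fell and 19.5% that rose (36.5% in all). In SUZ12-AID 13 members rose and 2 fell, with backgrounds of 15.1% and 4.05% (19.1% in all). Among the 13, Col12a1 and Col5a3 reached 1 TPM only in the auxin libraries of SUZ12-AID. Col14a1 and Col8a2 reached it in those and in 1 further library. Lama3 reached it only in the auxin libraries of SUZ12-AID and AID-JARID2, where it was called higher. All of these passed the filter through the groups where they are high, so their rises are not independent of it. No member passed in MTF2-AID, where limma called 10 genes in all (0.0638%, of which 0.0447% higher and 0.0192% lower), although 7 members had an unadjusted p under 0.05. These counts rest on 1 shared spread, but the lines differed in spread. Fitted weights were 0.5 for SUZ12-AID, 1.29 for MTF2-AID and 1.54 for AID-JARID2, a lower weight meaning a wider spread. With such weights 7 members rose and 0 fell in SUZ12-AID, and 1 rose and 1 fell in MTF2-AID. In AID-JARID2 7 rose and 18 fell. The median log2 fold change of the 41 members was 0.30 in SUZ12-AID, -0.09 in MTF2-AID and -0.25 in AID-JARID2, where the medians over all genes tested were 0.06, 0.01 and 0.01.

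**Figure D1:**
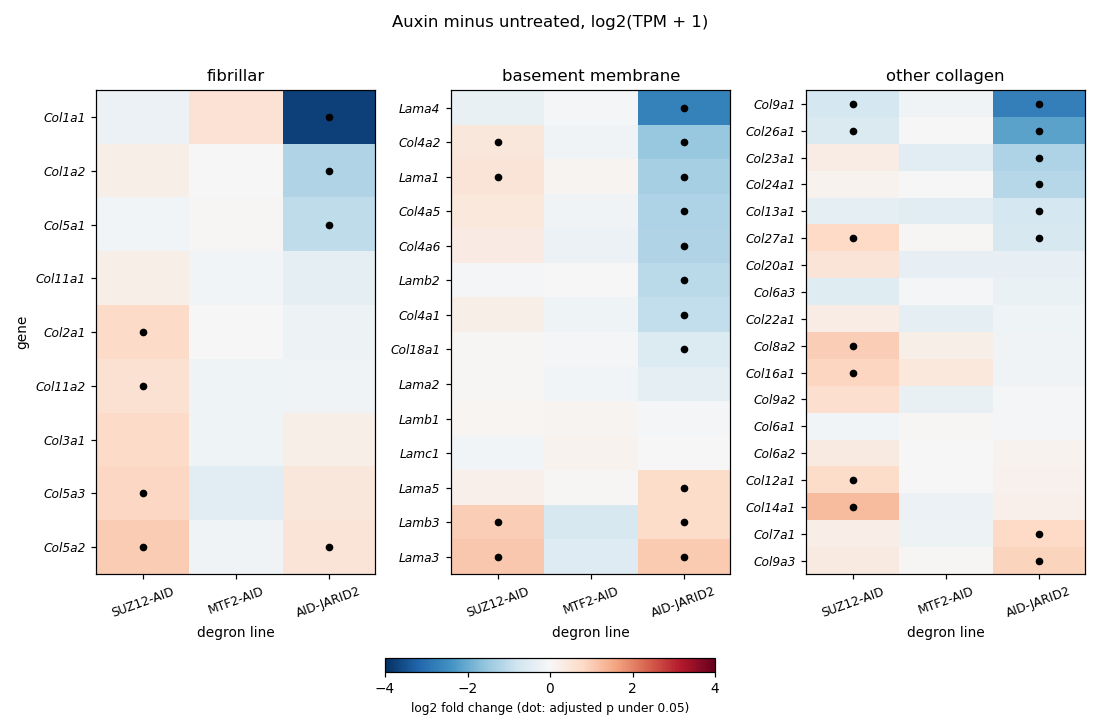
Heat map of log2 fold changes (auxin minus untreated, log2 of TPM + 1) for the 41 members tested, in 3 panels by class, with 1 row per gene and 1 column per degron line. A dot marks an adjusted p under 0.05 (limma): 15 members carry one in SUZ12-AID, 0 in MTF2-AID and 23 in AID-JARID2, and blue is densest in the AID-JARID2 column.

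Among the laminin alpha chains, auxin in AID-JARID2 left Lama5 high and took Lama4 and Lama1 down. Lama5 rose (log2 fold change 0.73, SE 0.181, adjusted p = 0.0103), while Lama4 fell by 2.72 and Lama1 by 1.34 on the log2 scale. Lama4 stood at 39.2 and 54.6 TPM in the untreated and 40.3 and 35.6 TPM in the auxin libraries of SUZ12-AID, at 56.9 and 58.9 against 59.5 and 52.6 TPM in MTF2-AID, and at 21.7 and 21.7 against 2.11 and 2.83 TPM in AID-JARID2. Both auxin libraries of AID-JARID2 lay far below the other 10, whose lowest was 21.7 TPM (log2 fold change -2.72, SE 0.151, adjusted p = 5.63e-07). Lama4 was not called in SUZ12-AID (log2 fold change -0.28, adjusted p = 0.241), where the treated libraries straddled the lower untreated one. Lama1 stood at 13.2 and 17.2 TPM in the untreated and 20.4 and 23.3 TPM in the auxin libraries of SUZ12-AID, at 26.9 and 29.0 against 29.8 and 30.5 TPM in MTF2-AID, and at 13.7 and 13.0 against 4.48 and 4.85 TPM in AID-JARID2. The Lama1 libraries separated in both lines but in opposite directions: it rose in SUZ12-AID (log2 fold change 0.50, SE 0.124, adjusted p = 0.0187) and fell in AID-JARID2 (log2 fold change -1.34, SE 0.124, adjusted p = 1.99e-05). The rise of Lama1 lost its call without the first untreated or the second auxin library of SUZ12-AID (adjusted p = 0.0666 and 0.141) and with a variance weight per line (adjusted p = 0.0748), while its fall kept it in 19 of 19 alternatives. Lama5 stood at 35.1 and 54.9 TPM in the untreated and 43.8 and 59.3 TPM in the auxin libraries of SUZ12-AID, at 53.4 and 53.7 against 57.7 and 53.2 TPM in MTF2-AID, and at 69.0 and 69.0 against 115 and 115 TPM in AID-JARID2. The highest 2 of all 12 libraries were the auxin libraries of AID-JARID2, and untreated AID-JARID2 came next. The call of Lama5 was lost when the second auxin library of AID-JARID2 was left out (adjusted p = 0.0506). The untreated and treated Lama5 libraries of SUZ12-AID overlapped. Lama2, the chain of muscle, ranged from 0.0895 to 1.32 TPM and was called in no auxin comparison.

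TPM is scaled to transcript length, so the chains can be set side by side as shares of the summed alpha chain level. In AID-JARID2 the Lama5 share went from 65.9 ± 0.298% to 92.9 ± 0.685% (SD, n = 2), Lama4 from 20.7 ± 0.0898% to 2.00 ± 0.398%, and Lama1 from 12.8 ± 0.401% to 3.77 ± 0.191%. The alpha chain total was 105 ± 0.514 TPM untreated and 124 ± 0.676 TPM with auxin. The composition thus shifted while the total stayed of the same order. In SUZ12-AID the Lama5 share was 41.1 ± 2.28% and 44.5 ± 5.42%, and in MTF2-AID 38.0 ± 0.675% and 38.9 ± 0.141%. These shares are descriptions and were not tested.

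**Figure D2:**
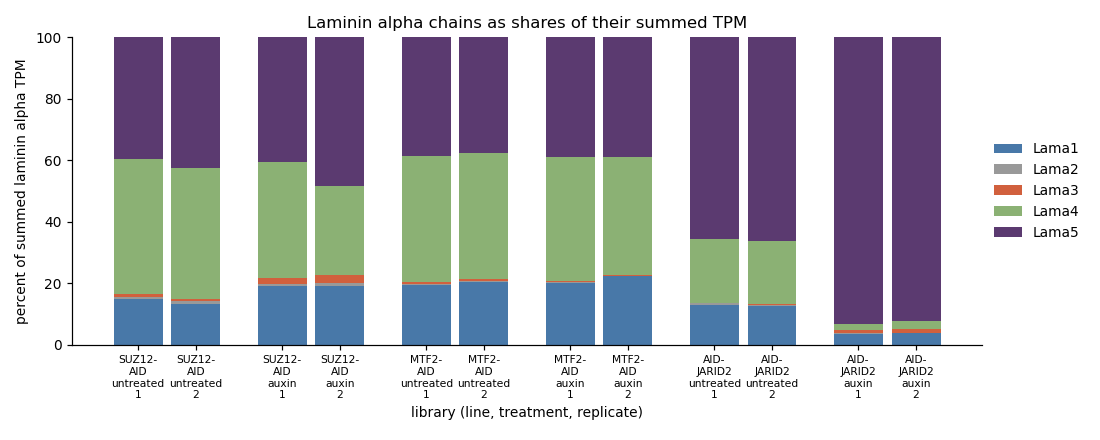
Stacked bars of the 5 laminin alpha genes as percent of their summed TPM (vertical axis), with 1 bar for each of the 12 libraries. In SUZ12-AID and MTF2-AID Lama5 takes 37.5% to 48.4% and Lama4 29.0% to 44.0%, with the widest gap in the second auxin library of SUZ12-AID. In AID-JARID2 Lama5 takes 65.7% and 66.1% untreated and 93.4% and 92.4% with auxin.

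The common beta and gamma chains moved less. Lamb1, the beta chain of most embryonic laminins, and Lamc1, its usual gamma partner, were called in no auxin comparison. Lamb1 had 97.9 and 120.1 TPM untreated and 110.3 and 121 with auxin in SUZ12-AID, 133 and 138 TPM untreated and 145 and 144 with auxin in MTF2-AID and 174.5 and 178 TPM untreated and 165 and 172 with auxin in AID-JARID2. Lamc1 had 84.8 and 136 TPM untreated and 92.5 and 105 with auxin in SUZ12-AID, 138 and 142 TPM untreated and 158 and 149.9 with auxin in MTF2-AID and 86.4 and 87.8 TPM untreated and 84.5 and 87.3 with auxin in AID-JARID2, with its first untreated SUZ12-AID library well below the second. Treated and untreated libraries of both genes lay close together in AID-JARID2. Lamb2 stood at 44.0 and 55.4 TPM in the untreated and 44.6 and 48.1 TPM in the auxin libraries of SUZ12-AID, at 54.5 and 56.6 against 59.4 and 53.7 TPM in MTF2-AID, and at 39.3 and 38.4 against 19.1 and 17.1 TPM in AID-JARID2. Lamb2, the beta chain of neuromuscular and vascular basement membranes, fell in AID-JARID2 without overlap (log2 fold change -1.06, SE 0.107, adjusted p = 3.44e-05) and went from 18 ± 0.465% to 9.62 ± 0.9005% of the summed beta chains.

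Lama3 and Lamb3, which pair in the epithelial laminin, rose in both SUZ12-AID and AID-JARID2. Lamb3 stood at 2.04 and 2.42 TPM in the untreated and 5.11 and 5.56 TPM in the auxin libraries of SUZ12-AID, at 2.58 and 2.68 against 1.48 and 1.17 TPM in MTF2-AID, and at 0.673 and 0.654 against 1.82 and 1.74 TPM in AID-JARID2. Treated and untreated Lamb3 libraries did not overlap in SUZ12-AID (log2 fold change 0.97, SE 0.146, adjusted p = 0.00158) or in AID-JARID2 (log2 fold change 0.74, SE 0.146, adjusted p = 0.00287), whereas both treated MTF2-AID libraries lay below the untreated ones (log2 fold change -0.65, adjusted p = 0.141, not called). Lama3 stood at 0.724 and 0.791 TPM in the untreated and 2.32 and 3.17 TPM in the auxin libraries of SUZ12-AID, at 0.970 and 0.823 against 0.293 and 0.333 TPM in MTF2-AID, and at 0.194 and 0.235 against 1.41 and 1.62 TPM in AID-JARID2. Both rest on few reads a library, 12 to 168 for Lama3 and 13 to 128 for Lamb3. Lama3, the less abundant of the pair in TPM, too separated in SUZ12-AID (log2 fold change 1.08, SE 0.171, adjusted p = 0.00206) and AID-JARID2 (log2 fold change 1.05, SE 0.171, adjusted p = 8.93e-04). It passed the expression filter only through the auxin libraries of these 2 lines, so its rises are not independent of the filter. Lama3 shares 197 exonic bases with the antisense gene Gm29200, and whether the counting used strand is not given in the sources used here.

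Markers of surface epithelium rose beside Lama3 and Lamb3 in SUZ12-AID, but their sum did not follow the pair in the other lines. Over all genes tested, 15.1% rose and 4.05% fell in SUZ12-AID, and 19.5% rose and 17% fell in AID-JARID2. These shares apply to the marker counts here and below, which were not tested against them. In SUZ12-AID 8 of 8 rose, and their summed level went from 2428 to 2572 TPM to 4084 to 4532 TPM. In AID-JARID2 6 of 8 rose and 2, Krt8 and Krt18, fell, leaving a sum of 2247 to 2337 TPM untreated and 2243 to 2367 TPM with auxin. Within that sum Cdh1, the epithelial cadherin, went from 62.2 and 54.8 TPM to 393 and 417 TPM. Krt8 went from 1000 and 1038 TPM to 335 and 344.5 TPM. In MTF2-AID 1 of 8 rose, with sums of 1589 to 1621 and 1942 to 1960 TPM, while Lama3 and Lamb3 were lower there without a call. The part of such cells in the laminin result was not tested.

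**Figure D3:**
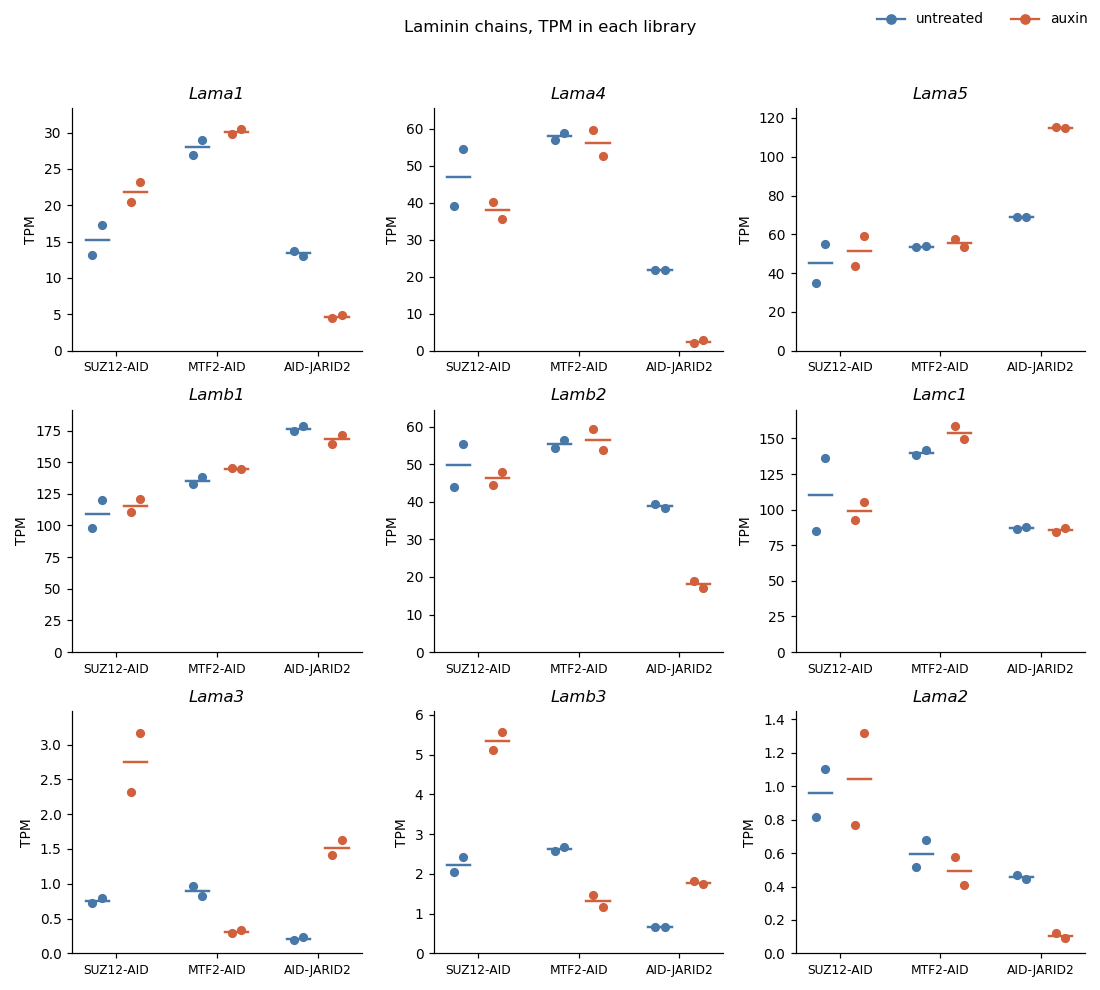
TPM of laminin genes in each of the 12 libraries, by line on the horizontal axis, with blue points for untreated and orange points for auxin libraries and a bar at each group mean of 2 libraries. In AID-JARID2 the treated points of Lama4, Lama1 and Lamb2 sit below the untreated ones and those of Lama5, Lama3 and Lamb3 above.

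All 4 type IV chains that passed the expression filter fell in AID-JARID2, and their sum went from 143 ± 1.63 to 61.5 ± 1.21 TPM (SD, n = 2). In SUZ12-AID the sum was 277 ± 42.1 and 350.1 ± 43.0 TPM, and 1 of the 4, Col4a2, rose. Col4a1 stood at 125 and 161 TPM in the untreated and 153 and 185 TPM in the auxin libraries of SUZ12-AID, at 156 and 158 against 141 and 140.0 TPM in MTF2-AID, and at 80.0 and 82.6 against 42.0 and 39.8 TPM in AID-JARID2. Col4a1, one of the 2 common chains, fell in AID-JARID2 (log2 fold change -0.97, SE 0.112, adjusted p = 8.83e-05) and was not called in SUZ12-AID (log2 fold change 0.25, SE 0.112, adjusted p = 0.168). Col4a2 stood at 108 and 125 TPM in the untreated and 144 and 173 TPM in the auxin libraries of SUZ12-AID, at 117 and 119 against 104 and 109 TPM in MTF2-AID, and at 51.8 and 51.8 against 17.4 and 17.7 TPM in AID-JARID2. Its partner Col4a2 fell further in AID-JARID2 (log2 fold change -1.51, SE 0.0892, adjusted p = 8.56e-07) and rose in SUZ12-AID (log2 fold change 0.44, SE 0.0892, adjusted p = 0.00762), a call that was lost without the second auxin library of that line (adjusted p = 0.0666). The ratio of Col4a2 to Col4a1 went from 0.637 ± 0.0141 to 0.430 ± 0.0216 in AID-JARID2, which is a description without a test.

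The X-linked pair behaved alike. Col4a5 stood at 7.38 and 11.6 TPM in the untreated and 12.6 and 12.8 TPM in the auxin libraries of SUZ12-AID, at 11.2 and 13.0 against 11.3 and 10.6 TPM in MTF2-AID, and at 5.11 and 5.04 against 1.57 and 1.61 TPM in AID-JARID2. Col4a6 stood at 6.49 and 9.47 TPM in the untreated and 9.74 and 10.4 TPM in the auxin libraries of SUZ12-AID, at 8.67 and 9.49 against 8.02 and 6.96 TPM in MTF2-AID, and at 4.75 and 4.53 against 1.495 and 1.44 TPM in AID-JARID2. In AID-JARID2 treated and untreated libraries of both genes stood apart, Col4a5 with a log2 fold change of -1.23 (SE 0.172, adjusted p = 3.31e-04) and Col4a6 with -1.19 (SE 0.159, adjusted p = 2.46e-04). In SUZ12-AID both treated libraries of each gene were above both untreated ones, and neither gene was called (adjusted p = 0.128 and 0.206). Col4a3 and Col4a4, the chains of the kidney filter, did not pass the filter and reached at most 0.0784 and 0.0714 TPM. Col18a1 stood at 144 and 157 TPM in the untreated and 153 and 158 TPM in the auxin libraries of SUZ12-AID, at 202 and 198 against 186 and 189.9 TPM in MTF2-AID, and at 117 and 114 against 79.1 and 77.1 TPM in AID-JARID2. Col18a1, whose C-terminal fragment is endostatin, had the highest untreated mean of all members and fell in AID-JARID2 (log2 fold change -0.56, SE 0.0540, adjusted p = 2.64e-05).

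Basement membrane is also made by endothelium and by extraembryonic endoderm, and their markers gave the following values. Of 8 endothelial markers, 1 rose and 2 fell in AID-JARID2, with a summed level of 85.9 to 95.7 TPM untreated and 64.3 to 65.8 TPM with auxin, and 6 rose and 1 fell in SUZ12-AID, with 202 to 208 and 232 to 246 TPM. The median log2 fold change of the endothelial list was 1.26 in SUZ12-AID and -0.05 in AID-JARID2. Egfl7 and Pecam1 made up most of its sum. Cdh5 stayed at or below 1.24 TPM in AID-JARID2. In SUZ12-AID Cdh5 went from 4.95 and 8.315 to 18.8 and 23.1 TPM, and Pecam1 from 78.0 and 89.6 to 46.2 and 43.5 TPM. Of 10 markers of extraembryonic endoderm, 5 passed the filter. Of those, 1 rose and 2 fell in AID-JARID2, where the list summed to 28.1 to 28.4 TPM untreated and 13.5 to 15.03 TPM with auxin, and 4 rose in SUZ12-AID, from 24.0 to 32.7 TPM to 48.2 to 51.4 TPM. Of this list, Afp, Ttr and Hnf4a stayed at or below 0.179 TPM in every library, whereas Dab2 ranged from 6.355 to 22.2 TPM. Pth1r went from 7.165 and 7.24 to 18.5 and 18.5 TPM in SUZ12-AID. In AID-JARID2 Pth1r went from 14.15 and 12.5 to 4.96 and 3.07 TPM. In MTF2-AID neither list held a called gene, although the endothelial sum was 214 to 215 TPM untreated and 154 to 163 TPM with auxin, with a median log2 fold change of -0.73, while the endoderm sum was 23.1 to 24.7 and 25.5 to 25.8 TPM. The part of these cells in the type IV collagen result was not tested.

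Among fibrillar collagens, the 3 most abundant chains, Col1a1, Col1a2 and Col5a1, all fell in AID-JARID2, and Col1a1 fell by 3.72 on the log2 scale. Col1a1 stood at 39.5 and 46.5 TPM in the untreated and 34.8 and 37.7 TPM in the auxin libraries of SUZ12-AID, at 24.7 and 27.4 against 40.1 and 38.5 TPM in MTF2-AID, and at 51.1 and 54.3 against 2.99 and 3.14 TPM in AID-JARID2. The treated AID-JARID2 libraries were far below the other 10 (log2 fold change -3.72, SE 0.0965, adjusted p = 3.80e-09), although untreated AID-JARID2 had the highest Col1a1 level of the 6 groups. In MTF2-AID both treated libraries exceeded both untreated ones, and the gene missed the call (log2 fold change 0.58, SE 0.0965, adjusted p = 0.0831). Col1a2 stood at 22.4 and 24.2 TPM in the untreated and 27.8 and 27.7 TPM in the auxin libraries of SUZ12-AID, at 18.7 and 20.4 against 20.2 and 18.9 TPM in MTF2-AID, and at 16.4 and 15.6 against 6.19 and 6.52 TPM in AID-JARID2. Col1a2, which supplies the other chain of type I collagen, fell less in AID-JARID2 (log2 fold change -1.21, SE 0.0874, adjusted p = 3.56e-06). Type I collagen usually holds a pair of Col1a1 chains and a single Col1a2 chain. The ratio of Col1a1 to Col1a2 TPM was 3.29 ± 0.268 untreated and 0.483 ± 0.00147 with auxin in AID-JARID2. It was 1.84 ± 0.117 and 1.30 ± 0.0769 in SUZ12-AID, and 1.33 ± 0.0184 and 2.01 ± 0.0337 in MTF2-AID.

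Col5a1 stood at 56.7 and 70.02 TPM in the untreated and 59.0 and 58.2 TPM in the auxin libraries of SUZ12-AID, at 82.9 and 79.5 against 86.3 and 81.7 TPM in MTF2-AID, and at 35.02 and 34.9 against 16.9 and 16.4 TPM in AID-JARID2. Col5a1, the main chain of type V collagen, which seeds type I fibrils, fell in AID-JARID2 without overlap (log2 fold change -1.03, SE 0.0893, adjusted p = 1.29e-05). It shares 99 and 113 exonic bases with 2 processed transcripts on the other strand. The summed fibrillar level went from 111 ± 1.42 to 32.8 ± 0.0351 TPM in AID-JARID2 and was 139 ± 16.4 and 142 ± 0.332 TPM in SUZ12-AID. In SUZ12-AID the abundant chains were not called, and 4 chains of low level rose. Col5a2, another type V chain, had 0.776 and 0.889 TPM untreated and 2.87 and 2.52 with auxin (log2 fold change 1.01, SE 0.170, adjusted p = 0.00280). It also rose in AID-JARID2 from 0.0582 and 0.228 to 0.671 and 0.577 TPM (log2 fold change 0.51, SE 0.170, adjusted p = 0.0391), a call that was lost without any 1 of the 4 AID-JARID2 libraries (adjusted p = 0.0609 to 0.207) and with a pseudocount of 5. Col2a1, the cartilage collagen, had 1.89 and 2.06 TPM untreated and 3.94 and 4.22 with auxin (log2 fold change 0.77, SE 0.156, adjusted p = 0.00721). Col11a2 (log2 fold change 0.61) and Col5a3 (0.82), minor chains of types XI and V, rose as well, Col11a2 ranging from 0.758 to 4.58 TPM and Col5a3 from 0.0655 to 2.19 TPM. Col5a3 passed the expression filter only through the auxin libraries of SUZ12-AID. Col11a2 lost its call in 7 of 18 alternatives, among them leaving out the first untreated or the second auxin library of SUZ12-AID (adjusted p = 0.115 and 0.2285) or either untreated AID-JARID2 library (adjusted p = 0.0515 and 0.0513). Col5a3 lost it without the first untreated SUZ12-AID library (adjusted p = 0.0801), Col2a1 without the second auxin library (adjusted p = 0.0542), and both with a variance weight per line. Col3a1, the type III chain, had 1.87 and 1.64 TPM untreated and 6.49 and 1.90 with auxin, so that its treated SUZ12-AID libraries disagreed, and it was called in no auxin comparison (in untreated AID-JARID2 it was lower than in untreated MTF2-AID, by -1.70 on the log2 scale, adjusted p = 0.00378). Col11a1 ranged from 1.79 to 3.09 TPM and was not called.

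Markers of mesenchyme and fibroblasts went with the fall of type I collagen in part. In AID-JARID2 4 of 8 fell and 2 rose, and the summed level went from 134 to 149 TPM to 59.9 to 61.5 TPM. Pdgfrb, a receptor of mural and mesenchymal cells, was 42.5 and 41.9 TPM untreated and 3.53 and 3.09 TPM with auxin. Rising there were Thy1, from 9.88 and 7.71 to 17.9 and 17.5 TPM, and Wt1, from 0.685 and 0.5585 to 3.62 and 4.10 TPM. In SUZ12-AID 3 rose and 1 fell, with 237 to 245 and 196 to 231 TPM, and none was called in MTF2-AID, with 231 to 243 and 209 to 222 TPM. Beside Col2a1, the notochord and cartilage list had 4 genes tested, 2 of which rose in SUZ12-AID, while 2 rose and 2 fell in AID-JARID2, and its defining genes Noto and Shh stayed at or below 0.107 TPM. None of its genes was called in MTF2-AID. Its summed level was 90.9 to 95.4 TPM untreated and 114 to 128 TPM treated in SUZ12-AID, 316 to 328 and 515 to 530 TPM in AID-JARID2, and 87.95 to 97.1 and 92.47 to 92.5 TPM in MTF2-AID. T made up most of the AID-JARID2 sum, at 307 and 297 TPM untreated and 501 and 517 TPM with auxin. Acan rose there too, to at most 2.58 TPM. Sox9 fell there from 18.8 and 17.3 to 11.9 and 9.21 TPM, and Hapln1 from 0.970 and 1.505 to 0.172 and 0.266 TPM. The part of these cells was not tested.

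**Figure D4:**
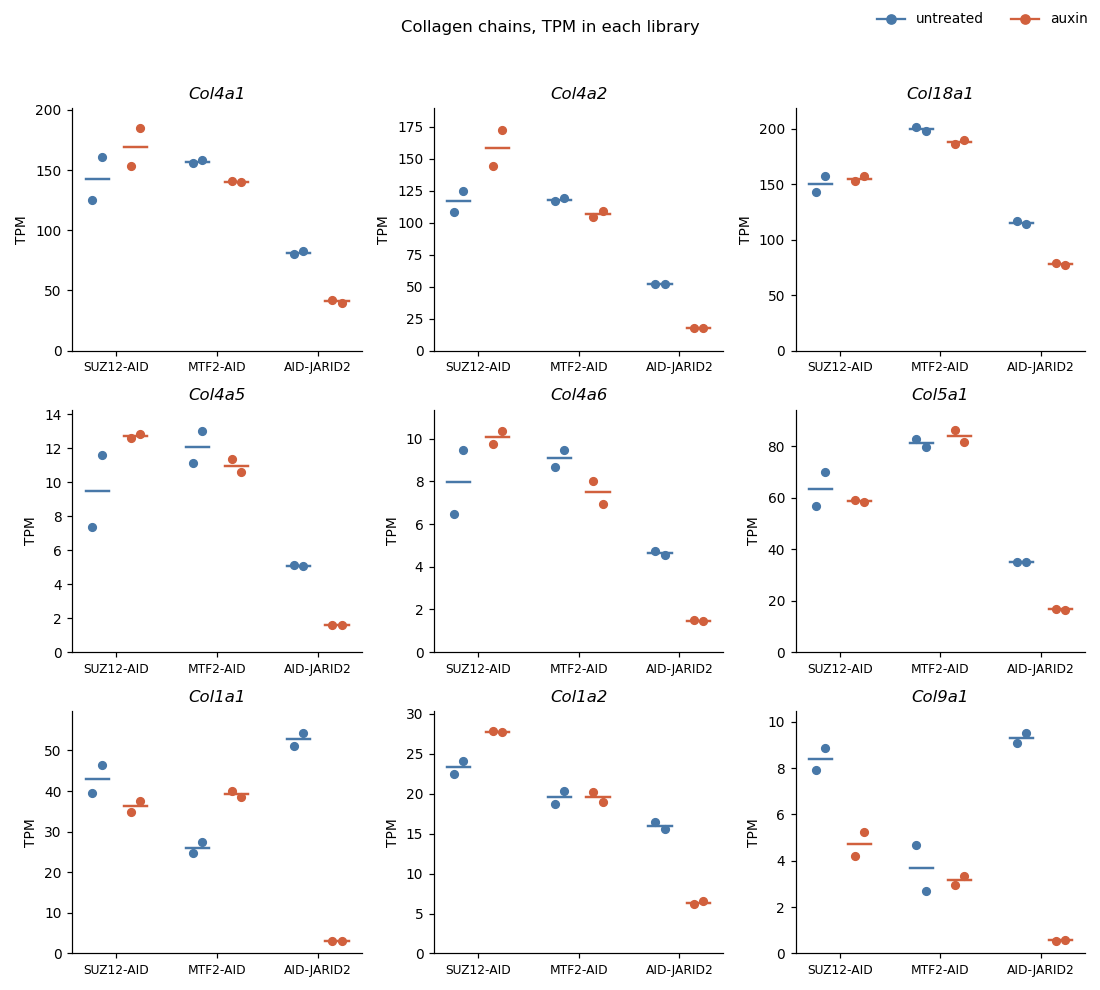
TPM of 9 collagen genes in each of the 12 libraries, by line on the horizontal axis, with blue points for untreated and orange points for auxin libraries and a bar at each group mean of 2 libraries. In each of the 9 panels the treated AID-JARID2 points are the lowest, and Col1a1 goes from 51.1 and 54.3 TPM to 2.99 and 3.14 TPM there.

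Among the other collagens, 6 of the 18 tested fell in AID-JARID2 and 2 rose (backgrounds 17% and 19.5%). In SUZ12-AID 5 rose and 2 fell (backgrounds 15.1% and 4.05%). Col9a1, a chain of the fibril-associated type IX, and Col26a1 fell in both lines. Col9a1 stood at 7.89 and 8.87 TPM in the untreated and 4.20 and 5.25 TPM in the auxin libraries of SUZ12-AID, at 4.69 and 2.71 against 2.94 and 3.36 TPM in MTF2-AID, and at 9.08 and 9.52 against 0.544 and 0.576 TPM in AID-JARID2. Treated and untreated Col9a1 libraries did not overlap in AID-JARID2 (log2 fold change -2.72, SE 0.196, adjusted p = 3.44e-06) or SUZ12-AID (log2 fold change -0.72, SE 0.196, adjusted p = 0.0288), and the SUZ12-AID call was lost in 5 of 19 alternatives, among them leaving out the second untreated or either auxin library of that line (adjusted p = 0.0630 to 0.140). Col26a1 stood at 18.2 and 20.8 TPM in the untreated and 14.2 and 11.6 TPM in the auxin libraries of SUZ12-AID, at 30.0 and 31.1 against 29.4 and 32.6 TPM in MTF2-AID, and at 11.5 and 9.81 against 1.95 and 1.33 TPM in AID-JARID2. Col26a1 separated in AID-JARID2 (log2 fold change -2.15, SE 0.145, adjusted p = 2.17e-06) and in SUZ12-AID (log2 fold change -0.56, SE 0.145, adjusted p = 0.0225), where the call was lost without the second untreated or the second auxin library (adjusted p = 0.0808 and 0.172) and with a variance weight per line. The other type IX chains did not follow Col9a1. Col9a3 stood at 7.51 and 6.05 TPM in the untreated and 9.41 and 8.50 TPM in the auxin libraries of SUZ12-AID, at 8.66 and 8.81 against 8.48 and 9.74 TPM in MTF2-AID, and at 4.48 and 3.93 against 8.86 and 8.50 TPM in AID-JARID2. Col9a3 rose in AID-JARID2 (log2 fold change 0.90, SE 0.130, adjusted p = 4.29e-04). It shares 234 exonic bases with Tcfl5 on the opposite strand. Col9a2 ranged from 0.776 to 6.80 TPM and was called in no auxin comparison.

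Both membrane-spanning collagens that passed the expression filter fell in AID-JARID2. Col13a1 stood at 13.8 and 14.4 TPM in the untreated and 11.2 and 10.3 TPM in the auxin libraries of SUZ12-AID, at 17.9 and 17.6 against 12.9 and 12.9 TPM in MTF2-AID, and at 5.45 and 4.58 against 3.03 and 2.38 TPM in AID-JARID2. Col13a1, a transmembrane collagen of muscle and neuromuscular junctions, fell there (log2 fold change -0.70, SE 0.121, adjusted p = 0.00128) and was lower without a call in MTF2-AID (adjusted p = 0.230) and SUZ12-AID (adjusted p = 0.0648). Col23a1 stood at 8.85 and 9.74 TPM in the untreated and 12 and 11.3 TPM in the auxin libraries of SUZ12-AID, at 20.6 and 20.2 against 14.9 and 14.3 TPM in MTF2-AID, and at 4.68 and 4.15 against 1.46 and 1.18 TPM in AID-JARID2. Col23a1, also transmembrane, fell in AID-JARID2 (log2 fold change -1.23, SE 0.113, adjusted p = 1.97e-05), and its untreated level in MTF2-AID was the highest of the 6 groups. Col27a1 stood at 2.45 and 3.23 TPM in the untreated and 4.74 and 6.65 TPM in the auxin libraries of SUZ12-AID, at 3.26 and 2.91 against 3.22 and 3.15 TPM in MTF2-AID, and at 4.47 and 5.26 against 2.67 and 2.90 TPM in AID-JARID2. Col27a1, a fibril-forming collagen of cartilage grouped here with the others, rose in SUZ12-AID (log2 fold change 0.80, SE 0.173, adjusted p = 0.0104) and fell in AID-JARID2 (log2 fold change -0.63, SE 0.173, adjusted p = 0.0167). The second of these calls was lost without any 1 of 3 AID-JARID2 libraries, and the first without the second auxin library of SUZ12-AID (adjusted p = 0.0915) or with a variance weight per line (adjusted p = 0.0586). Col24a1 fell in AID-JARID2 (-1.14 on the log2 scale, 2.79 and 2.81 TPM untreated and 0.613 and 0.852 with auxin), and Col7a1, the anchoring fibril collagen under surface epithelia, rose (0.79, 1.88 and 1.95 TPM untreated and 3.87 and 4.20 with auxin). In SUZ12-AID Col14a1 (1.26), Col8a2 (0.97), Col16a1 (0.86) and Col12a1 (0.73) rose from low levels, the highest library of the 4 genes being 4.69 TPM. Col12a1 passed the expression filter only through the auxin libraries of SUZ12-AID, and Col14a1 and Col8a2 through those and 1 further library. Col12a1 lost its call in 4 of 16 alternatives, among them leaving out either untreated SUZ12-AID library (adjusted p = 0.0855 and 0.0544), and the other 3 kept theirs in each alternative that tested them.

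Tested without any auxin call were Col6a1 at 5.00 to 10.7 TPM, Col6a2 at 2.33 to 5.08 TPM, Col6a3 at 0.113 to 1.74 TPM, Col20a1 at 0.447 to 2.98 TPM and Col22a1 at 1.49 to 3.64 TPM. The first 3 are the chains of type VI, a microfibril around cells. Not tested were 13 members: Col15a1, Col4a3, Col4a4 and Lamc3 of the basement membrane class, and Col10a1, Col17a1, Col19a1, Col25a1, Col28a1, Col6a4, Col6a5, Col6a6 and Col8a1 of the others. Their highest values ran from 0.0197 TPM for Col6a6 to 1.10 TPM for Col15a1. Col10a1, the collagen of hypertrophic cartilage, and Col6a6 were listed at 0 in 11 of 12 libraries each. Col15a1 was 0.305 and 0.161 TPM untreated and 1.10 and 0.704 TPM with auxin in SUZ12-AID.

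The lists of calls in SUZ12-AID and AID-JARID2 come from separate libraries, with 1 shared estimate of the spread. Of the 13 members that rose in SUZ12-AID, 3 also rose in AID-JARID2 (Lama3, Lamb3 and Col5a2), which are 23.1% of the first list and 50% of the 6 that rose there. Over all genes tested, 42.3% of those that rose in SUZ12-AID also rose in AID-JARID2, which were 32.7% of the genes that rose there. Lama3 passed the expression filter only through the auxin libraries of SUZ12-AID and AID-JARID2. A further 3 of the 13 were among the 17 that fell in AID-JARID2: Col4a2, Lama1 and Col27a1 (23.1% of the 13 and 17.6% of the 17, against 13% and 11.5% over all genes tested). Both members that fell in SUZ12-AID, Col26a1 and Col9a1, were among those 17, and of all genes tested that fell in SUZ12-AID 46.6% also fell in AID-JARID2. In neither line were 11 members called (26.8%, against 55.2% of all genes tested). These shares were not tested against those of all genes.

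The difference between the auxin effects was tested for each pair of lines. Of the 41 members, 21 had a lower effect in AID-JARID2 than in SUZ12-AID and 0 a higher one, against backgrounds of 15% and 9% (24% in either direction). They included 4 of 4 type IV chains, Lama1, Lama4 and Lamb2. The effects on Lama3 and Lamb3 were not called different between these 2 lines (differences -0.03 and -0.23, adjusted p = 0.942 and 0.470), with SEs of 0.242 and 0.206. Between MTF2-AID and SUZ12-AID 8 members differed (background 11.1%), 1 of them, Col1a1, higher in MTF2-AID (background 2%). Lama3 and Lamb3 were among the 7 lower ones (background 9.11%), by -1.61 and -1.62 (adjusted p = 0.00306 and 0.00134). Between AID-JARID2 and MTF2-AID 15 members were lower and 4 higher in AID-JARID2, with backgrounds of 11.7% and 12.6% (24.3% in all). The 3 differences share libraries and are not independent of one another.

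The lines also differed before auxin. Untreated AID-JARID2 had 19 members lower and 5 higher than untreated SUZ12-AID (backgrounds 12.4% and 15.2%, 27.6% in all), and 23 lower and 6 higher than untreated MTF2-AID (17.6% and 15.8%, 33.4% in all). The 4 type IV chains were lower in both comparisons, Col4a2 by -1.15 and -1.17 on the log2 scale. Lama4 was lower by -1.06 and -1.38, and Lama3 and Lamb3 were lower in both. Thus the type IV chains and Lama4 stood lowest in untreated AID-JARID2 and lower still with auxin, whereas Lama3 and Lamb3 started low there and rose. Lamb1 was higher in untreated AID-JARID2 (0.70 and 0.38), as were Col1a1, Col24a1 and Col27a1, and Lama5 was higher than in SUZ12-AID (0.64, adjusted p = 0.0254). Untreated MTF2-AID had 7 members higher and 2 lower than untreated SUZ12-AID (backgrounds 5.5% and 3.15%, 8.65% in all), the largest being Col23a1 (1.06) and Col9a1 (-1.03). These untreated libraries are also the controls of the auxin comparisons.

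Other genes of the same pathways were taken from lists. Over all genes tested, 17% fell and 19.5% rose in AID-JARID2, and 15.1% rose and 4.05% fell in SUZ12-AID. No list count was tested against these shares. In SUZ12-AID the rises of fibril-associated genes (3 of 16) and of metalloproteinases and inhibitors (2 of 11) lay near that 15.1%. Of 28 tested genes that process collagen (hydroxylases, chaperones, propeptidases and cross-linking oxidases), 16 fell and 1 rose in AID-JARID2, and 9 rose and 1 fell in SUZ12-AID. Adamts2, which trims the N-propeptide of type I procollagen, was 13.3 and 13.7 TPM untreated and 1.85 and 1.46 TPM with auxin in AID-JARID2 (log2 fold change -2.46, adjusted p = 7.21e-07). Its relative Adamts3 went from 4.77 and 5.51 to 1.47 and 1.38 TPM there. The cross-linking oxidases Loxl1 and Loxl2 fell too, from 17.2 and 14.9 to 4.95 and 5.17 TPM and from 30.3 and 35.7 to 11.2 and 11.8 TPM. In SUZ12-AID the collagen oxidase Loxl3 rose from 4.67 and 4.28 to 7.87 and 7.78 TPM, P4ha2, a prolyl hydroxylase subunit, from 34.8 and 38.0 to 49.9 and 55.1 TPM, P3h3 from 6.00 and 6.92 to 10.4 and 10.3 TPM, and Pcolce2 from 6.80 and 6.97 to 11.4 and 10.1 TPM.

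Of 12 tested receptors of collagens and laminins, 8 rose and 0 fell in AID-JARID2, and 6 rose and 1 fell in SUZ12-AID. Itga3, the integrin alpha chain for Lama5 and Lama3 laminins, went from 28.3 and 28.7 to 175 and 196 TPM in AID-JARID2 (log2 fold change 2.66, adjusted p = 2.29e-07) and from 30.2 and 34.5 to 65.3 and 87.9 TPM in SUZ12-AID. Itga6, another laminin integrin chain, rose in both lines, from 23.8 and 25.3 to 47.5 and 49.3 TPM and from 8.82 and 11.7 to 17.2 and 22.5 TPM. Mcam, which binds Lama4 laminin, rose from 12.4 and 12.1 to 72.4 and 75.1 TPM in AID-JARID2 and from 26.2 and 24.7 to 43.0 and 50.6 TPM in SUZ12-AID. Thus the Lama4 receptor gene and Lama4 moved in opposite directions in AID-JARID2. Itgb4, the integrin beta chain of hemidesmosomes, rose in SUZ12-AID from 9.16 and 11.5 to 23.0 and 30.7 TPM, and Itga1, a collagen integrin chain, rose in AID-JARID2 from 1.96 and 1.98 to 7.18 and 8.52 TPM.

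Basement membrane partners were mixed: of 15 tested, 4 rose and 5 fell in AID-JARID2, and 6 rose and 2 fell in SUZ12-AID. The nidogens, which link laminin to type IV collagen, split in AID-JARID2, Nid2 rising from 108 and 110 to 228 and 238 TPM and Nid1 falling from 22.5 and 23.5 to 12.1 and 11.8 TPM. Fbln2 and Fbln1, fibulins that bridge matrix proteins, fell from 39.3 and 39.4 to 6.48 and 5.02 TPM and from 129 and 130.4 to 39.5 and 32.7 TPM. In SUZ12-AID Tinagl1, a basement membrane glycoprotein, rose from 5.59 and 5.13 to 17.95 and 22.5 TPM and Nid2 from 49.4 and 64.2 to 95.98 and 114 TPM. Npnt and Frem2 rose there as well, by 1.03 and 0.80 on the log2 scale. Of 16 tested fibril-associated genes, 7 fell and 2 rose in AID-JARID2, and 3 rose and 2 fell in SUZ12-AID. Fn1, fibronectin, went from 1538 and 1616 to 452 and 429 TPM in AID-JARID2, and Mfap4 and Emilin1, both of elastic fibres, fell by 1.87 and 1.68 on the log2 scale. Thbs1 rose in AID-JARID2 (1.71) and SUZ12-AID (1.07), Tnc, tenascin C, rose in SUZ12-AID (1.66), and Mfap2 and Emilin1 fell there by 0.93 and 0.62.

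Of 11 tested matrix metalloproteinases and inhibitors, 6 fell and 3 rose in AID-JARID2 and 2 rose and 3 fell in SUZ12-AID. Mmp15, a membrane-bound protease, fell from 74.1 and 72.6 to 25.4 and 24.5 TPM in AID-JARID2, and the inhibitors Timp2 and Reck fell by 1.31 and 1.34 on the log2 scale, while Timp1 rose by 1.19. In SUZ12-AID Mmp2, the gelatinase that cuts type IV collagen, fell from 194 and 206 to 149.8 and 139.7 TPM, and Mmp15 and Timp3 fell by 0.41 and 0.31. In MTF2-AID no gene of the 5 lists was called by limma.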

How the data were processed

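PolyA RNA of 12 libraries (3 lines, untreated or with auxin, 2 each) was sequenced as strand-specific dUTP libraries. The authors deposited 1 table of TPM values for 35856 rows. Reads were aligned with STAR 2.6.1d to mm10, per the submitters' processing notes. Which program and annotation gave the TPM is not given in the sources used here. Columns were matched to libraries by line, treatment and replicate number in their names.

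From the TPM values, log2(TPM + 1) was fitted for the 15663 rows that reached 1 TPM in 2 or more libraries with limma 3.58.1 in R 4.3.3 (eBayes with trend). All 6 groups shared 1 estimate of the spread, with 6 residual and 3.9 prior degrees of freedom and no replicate block. Tests were two-sided, adjusted by Benjamini-Hochberg over all rows kept, and called at 0.05. The procedure was tested on simulated data. Every value above 0 in the table was a whole multiple of its per-read step within 0.02 reads, and these reads give the depth only. Gene positions and exon overlaps come from GENCODE M21 and start regions from RefSeq on GRCm38.p6.

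The members and all gene lists were chosen with earlier results of these data known. Of the laminin genes, 1 is not reported here and is left out of every count of members. Members called in an auxin comparison with a group mean of at least 5 TPM (19) have every library given. From each list, up to 4 called genes per line are named, those of largest change with at least 5 TPM in the higher group. Markers are given as counts, with summed ranges. Of 4 neural progenitor markers tested, 3 rose in SUZ12-AID and 3 in AID-JARID2, of 9 cardiac precursor markers 5 rose in SUZ12-AID and 8 fell in AID-JARID2, of 8 pluripotency markers 7 rose in SUZ12-AID and 8 in AID-JARID2, and none of these was called in MTF2-AID. The neural sum was 35.7 to 36.4 TPM untreated and 56.9 to 57.9 TPM with auxin in SUZ12-AID, 68.4 to 68.6 and 73.5 to 76.4 in MTF2-AID and 68.7 to 70.8 and 294 to 309 in AID-JARID2. Most of it was Nes and Tubb3, at 217 and 225 and at 74.2 and 80.9 TPM in the auxin libraries of AID-JARID2. The defining genes Sox1, Pax6, Neurog2 and Pou3f2 stayed at or below 0.559 TPM in every library. The pluripotency sum went from 168.5 to 190.8 TPM to 303.7 to 375 TPM in SUZ12-AID and was 212 to 227 and 225 to 233 TPM in MTF2-AID. Alternatives were 2 other pseudocounts (0.1 and 5), 2 other filters, median-of-ratios scaling, a variance weight per line, a replicate block and leaving out each library.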

Additional observations from a re-analysis of the deposited data

Results flagged for a closer look

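Among the 19 members given library by library, 35 differences between the auxin effects of 2 lines passed an adjusted p of 0.05 in limma. The 19 were chosen for an auxin call in these same libraries, so their counts are raised by that choice and support no conclusion. Over all genes tested, 24% differed between AID-JARID2 and SUZ12-AID, 24.3% between AID-JARID2 and MTF2-AID and 11.1% between MTF2-AID and SUZ12-AID. Values in parentheses are differences of log2 fold changes, the first line named minus the second, and the 3 sets share libraries.

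For AID-JARID2 minus SUZ12-AID 15 members differed, each of them lower in AID-JARID2. In the basement membrane class these were Col4a1 (-1.22), Col4a2 (-1.95), Col4a5 (-1.65), Col4a6 (-1.51), Col18a1 (-0.60), Lama1 (-1.85), Lama4 (-2.43) and Lamb2 (-0.97). The fibrillar chains were Col1a1 (-3.49), Col1a2 (-1.45) and Col5a1 (-0.92), and the other collagens were Col23a1 (-1.52), Col26a1 (-1.58), Col27a1 (-1.43) and Col9a1 (-2.01).

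For AID-JARID2 minus MTF2-AID 16 members differed. Lower in AID-JARID2 were Col4a1 (-0.82), Col4a2 (-1.36), Col4a5 (-1.10), Col4a6 (-0.94), Col18a1 (-0.47), Lama1 (-1.45), Lama4 (-2.67) and Lamb2 (-1.09) of the basement membrane class, Col1a1 (-4.30), Col1a2 (-1.21) and Col5a1 (-1.08) of the fibrillar class and Col23a1 (-0.77), Col26a1 (-2.17) and Col9a1 (-2.57) of the others. Higher were the laminin chain Lamb3 (1.39) and the type IX chain Col9a3 (0.84).

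For MTF2-AID minus SUZ12-AID 4 members differed. Col1a1 was higher in MTF2-AID (0.81), and Col23a1 (-0.76), Col4a2 (-0.58) and Lamb3 (-1.62) were lower.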

How the results depend on the processing

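No called member changed sign in 19 alternatives. In AID-JARID2 20 of 23 calls were kept in every alternative that tested the gene, the exceptions being Col27a1, Col5a2 and Lama5. In SUZ12-AID 6 of 15 were. With at least 5 TPM required, which tests 23 members, 4 rose in SUZ12-AID and 3 in AID-JARID2, and 4 effects differed between MTF2-AID and SUZ12-AID. With a variance weight per line, 7 rose and 0 fell in SUZ12-AID, and 1 rose (Col1a1) and 1 fell (Lamb3) in MTF2-AID. Without a filter 1 fell in SUZ12-AID and 5 differed between untreated MTF2-AID and SUZ12-AID, against 9. Median-of-ratios scaling gave 4 lower in SUZ12-AID and 1 higher (Col1a1) in MTF2-AID, and moved the median of all genes from 0.06 to -0.02 in SUZ12-AID. Leaving out 1 library gave 7 to 17 higher and 0 to 6 lower in SUZ12-AID, 0 to 1 higher and 0 lower in MTF2-AID, and 4 to 6 higher and 16 to 17 lower in AID-JARID2. The 7 came without SUZ12-AID auxin replicate 2, the 6 without its untreated replicate 1, and 0 lower without untreated replicate 2 or auxin replicate 2. Differing effects numbered 18 to 22 (AID-JARID2 and SUZ12-AID), 5 to 14 (MTF2-AID and SUZ12-AID) and 18 to 20 (AID-JARID2 and MTF2-AID). Untreated differences numbered 13 to 24, 4 to 15 and 21 to 30 for the same pairs of lines. The highest values of the MTF2-AID and SUZ12-AID pair, 14 and 15, came without SUZ12-AID untreated replicate 2, its 5 differing effects without MTF2-AID untreated replicate 1 or either auxin replicate, the 13 without AID-JARID2 untreated replicate 2 (15 without replicate 1), and the 4 without MTF2-AID untreated replicate 2. A lone library was assumed to vary like the other groups. The causes were not tested. With a replicate block, 13 rose and 2 fell in SUZ12-AID, 0 changed in MTF2-AID and 6 rose and 17 fell in AID-JARID2. Over the genes tested, the deviations of replicate 1 from its group mean correlated between groups at -0.0534 to 0.0958. No shared shift of same-numbered libraries was thus seen, but whether the numbers mark a shared culture or day is not said. The planned edgeR test on recovered reads was not run, since TPM is no count. Depth limits the members under about 1 TPM, which rest on few reads.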

Other observations

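Several members are neighbours on the genome, and neighbours did not always move alike. Col4a1 and Col4a2 on chromosome 8 lie head to head with 22 overlapping bases, and both fell with auxin in AID-JARID2. Col4a5 and Col4a6 start 1308 bases apart on chromosome X and fell by 1.23 and 1.19 on the log2 scale. Col5a2 and Col3a1 lie tail to tail 24614 bases apart, and Col5a2 was called higher in both lines while Col3a1 was called in no auxin comparison.

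The ratio of Lamb1 to Lamc1 TPM was 2.03 ± 0.00963 untreated and 1.96 ± 0.0102 with auxin in AID-JARID2 (SD, n = 2). In SUZ12-AID it was 1.02 ± 0.193 and 1.17 ± 0.0296, and in MTF2-AID 0.968 ± 0.00885 and 0.940 ± 0.0334. The summed level of the 54 members was 839.8 ± 3.70 TPM untreated and 611 ± 3.06 TPM with auxin in AID-JARID2, where the basement membrane class held 667 ± 2.34 and 538 ± 3.43 TPM. Start regions of the 13 matched members that fell in AID-JARID2 had a median of 12 CpG dinucleotides in 250 bases, those of the 3 that rose 7, and those of the 13 tested without a call 9, against 6 over all windows. These values were not tested.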
